A study of Homo sapiens with 15 samples.

Results

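Transcript levels of 30 genes of mitosis and of the G2/M transition were followed across all 15 RNA-sequencing libraries of a series on neurofibromin loss. The genes were taken as a named list of mitotic genes and were matched by symbol to Ensembl identifiers: 30 of the 60721 genes in the deposited table, all of which passed the filter on low counts. The cells were MCF-10A (labelled MCF10), an immortalised, non-tumorigenic human mammary epithelial line, grown without treatment in medium with horse serum, EGF, hydrocortisone, cholera toxin and insulin. The 5 genotypes had 3 biological replicates each: parental cells, cells with an empty vector, and 3 NF1-mutant lines made with guide RNA 1 (NF1-g1), guide RNA 2, or guide RNAs 1 and 2. NF1 encodes neurofibromin, which switches RAS off, and the comparison addresses what its loss does to transcript levels. The labels do not say whether an edited line was 1 clone or a pool, nor what separated the biological replicates, so p-values here measure the spread between these cultures as labelled.

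Mitotic genes are transcribed in waves that peak in G2 and early mitosis. In resting cells and in G1 the DREAM complex holds their promoters silent. It binds through LIN54 to a short element named the cell cycle genes homology region (CHR). Later in the cycle the MuvB core of the same complex joins B-MYB and FOXM1 and activates them, with NF-Y bound at CCAAT boxes nearby. Because the transcripts fall after division, their level in a culture follows the share of cells in G2 and mitosis. In bulk RNA, fewer such cells and less of the transcript per cell cannot be told apart, and this holds for every value given here.

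Promoter windows were available from RefSeq (GRCh38.p14) for 24 of the 30 genes. They reach from 250 bases before to 50 bases after each annotated start. The letters TTTGAA or TTCGAA, searched on both strands as the core of the CHR, were present in at least 1 window of 17 of the 24 genes (70.8%), against 19.5% of 27305 genes with a window. CCAAT, also on both strands, was present in 21 of 24 (87.5%), against 39.7%, and both kinds of letters in 16 of 24 (66.7%), against 7.85%. Counted over windows, since some genes have several starts, 65.5% of 29 member windows and 16.4% of all 35116 held the CHR letters. Of 31 genes of DNA replication with a window, 2 (6.45%) held them, and 19 (61.3%) held CCAAT. The CHR letters were as common in some other G2/M lists, so their share was not particular to the members. It was 81.8% for condensin and chromosome genes, 76% for spindle and cytokinesis genes and 72.7% for regulators and kinases. It was 50% for centromere and kinetochore genes and 42.9% for genes of the APC/C, the checkpoint and mitotic exit. A match is a description of the letters and not evidence of binding. Stretches were cut from base -180 to base -1 from the start, or to the edge of the gene model where that came first (-27 in CDC20, -55 in TOP2A). Those of KIF2C, CENPE, CDC25C, BUB1B and KIF23, cut in the same way, held neither kind of letters. In BUB1B and KIF23 the cut, at -47 and -104, left out letters nearer the start. These were CHR letters at -23 in BUB1B, and CHR letters at -55 and CCAAT letters at -64 in KIF23. CDC25C held both kinds elsewhere in its windows. CDK1 has a further start, whose window holds more of these letters and is not shown. The stretches before the start of 4 members are shown because they carry these letters in different arrangements. They are read 5′ to 3′ on the gene's strand, and capitals mark CHR letters (TTTGAA, or TTCAAA on the other strand) and CCAAT letters (CCAAT, or ATTGG on the other strand). The MKI67 stretch has CHR and CCAAT letters that run into each other in TTTGAATTGG, where they share bases.
MKI67 (chr10:128126424-128126603, minus strand): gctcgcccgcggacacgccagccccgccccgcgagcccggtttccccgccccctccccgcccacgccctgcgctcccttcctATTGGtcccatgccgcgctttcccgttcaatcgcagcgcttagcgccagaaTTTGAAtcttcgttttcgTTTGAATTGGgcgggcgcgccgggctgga
CDC20 (chr1:43358801-43358954, plus strand): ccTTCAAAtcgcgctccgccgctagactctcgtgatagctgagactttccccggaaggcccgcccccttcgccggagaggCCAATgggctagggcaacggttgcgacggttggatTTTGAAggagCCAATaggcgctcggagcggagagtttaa
CDK1 (chr10:60778151-60778330, plus strand): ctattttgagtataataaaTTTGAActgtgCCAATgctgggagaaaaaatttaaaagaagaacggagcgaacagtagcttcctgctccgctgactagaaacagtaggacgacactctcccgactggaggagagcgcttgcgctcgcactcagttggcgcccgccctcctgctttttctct
TOP2A (chr17:40417951-40418076, minus strand): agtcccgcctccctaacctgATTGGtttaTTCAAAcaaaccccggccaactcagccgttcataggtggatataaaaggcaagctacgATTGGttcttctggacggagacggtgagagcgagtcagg

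Library totals lay between 46129559 and 78976917 counts, so each of the 28 well-measured members had at least 1003 counts in every library. NF1 itself stood at 159, 141 and 153 CPM in parental cells and 115, 123 and 133 in empty-vector cells. It stood at 43.6, 47.3 and 51.3 CPM in guide 1, 27.0, 31.4 and 29.8 in guide 2, and 28.9, 29.4 and 26.0 in guides 1 and 2, so every edited library was below every control library. CPM are the deposited counts scaled by the library total. In the mitotic genes or over the whole transcriptome, 4 libraries stood apart from others of their own genotype and are described before the results that rest on them.

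Guide 1 replicate 3 left its group. Its level was above both other guide 1 libraries and over 1.5-fold above their mean for 29 of the 30 genes, all but NUSAP1. Over all 17457 genes tested, 5.89% were as far above, and 40.2% were above both. The median difference over the 30 genes was 1.92-fold, with a range from 1.01-fold in NUSAP1 to 2.39-fold in NEK2, a centrosome kinase. Summed over the 30 genes, guide 1 had 3501, 3521 and 6961 CPM, so 2 libraries lay below every empty-vector library (3636, 3849 and 4613 CPM) and 1 lay within the parental range (6596, 7387 and 7102 CPM). Guide 1 replicates 1 and 2 were both below every parental library for 29 genes (30% of all genes tested) and below every empty-vector library for 20 (30.8%). Replicate 3 lay inside the parental range for 21 genes (54.9%) and above every empty-vector library for 29 (37.6%).

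In NF1 itself guide 1 replicate 3 stood near its mates, at 51.3 CPM against 43.6 and 47.3. The summed level of 12 basal mammary epithelial markers was 2278 CPM there, against 2658 and 2949. The summed level of 8 fibroblast markers was 437 CPM there, against 976 and 1105 in the other 2 guide 1 libraries, and DCN alone made up 432 of the 437 CPM and 965 and 1095 of the other sums. The 36 genes of DNA replication summed to 4414 CPM, against 2804 and 2699. Their part in the departure was not tested. Empty-vector replicate 3 was above its 2 group mates for 28 of 30 genes (43.2% of all genes), by a median of 1.22-fold, and by less than 1.5-fold in each. Guide 2 replicate 2 stood far apart over the whole transcriptome, at 91.9 on the first principal component (46.4% of the variance) against -46.0 and -47.8. For the mitotic genes it was above both mates in 19 of 30 (44.8% of all genes) and by a median of only 1.06-fold. Beside NUSAP1, at 1.58-fold, the genes furthest above the mean of the mates there were AURKB, CDC20, UBE2C, TPX2 and CCNB1, at 1.31-fold to 1.42-fold, and CDC25C was lowest, at 0.64-fold. Parental replicate 2 lay at -25.2 on the first principal component, against 47.2 and 23.4 in its mates, and its basal markers summed to 2971 CPM, against 7460 and 6247. Its mitotic sum, 7387 CPM, was the highest of the 3, against 6596 and 7102.

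**Figure D1:**
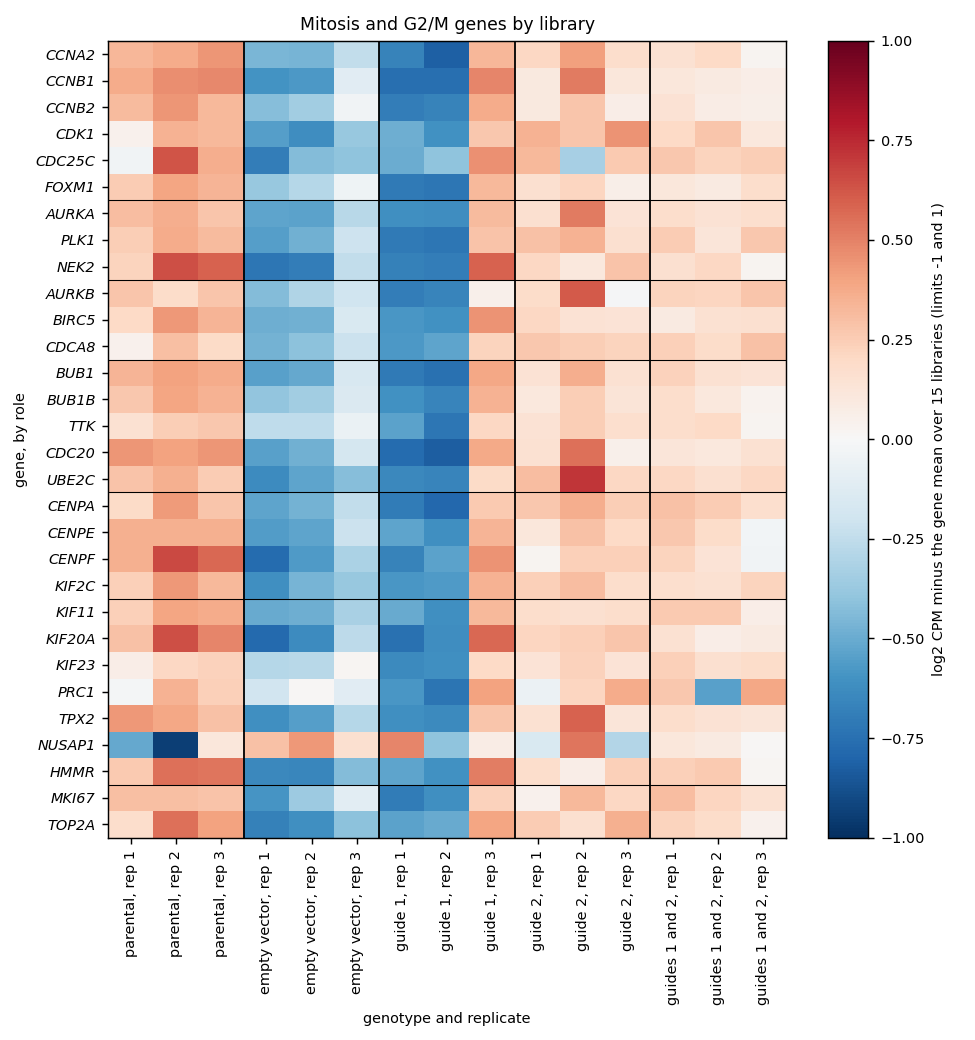
Log2 CPM of each of the 30 genes (rows, in blocks by role) in each of the 15 libraries (columns, by genotype and replicate), minus the gene's mean over all libraries, with colours limited to -1 and 1. The first 2 guide 1 libraries are low, as the empty-vector libraries are, and guide 1 replicate 3 is high in 29 of 30 genes relative to them, with NUSAP1 as the exception.

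**Figure D2:**
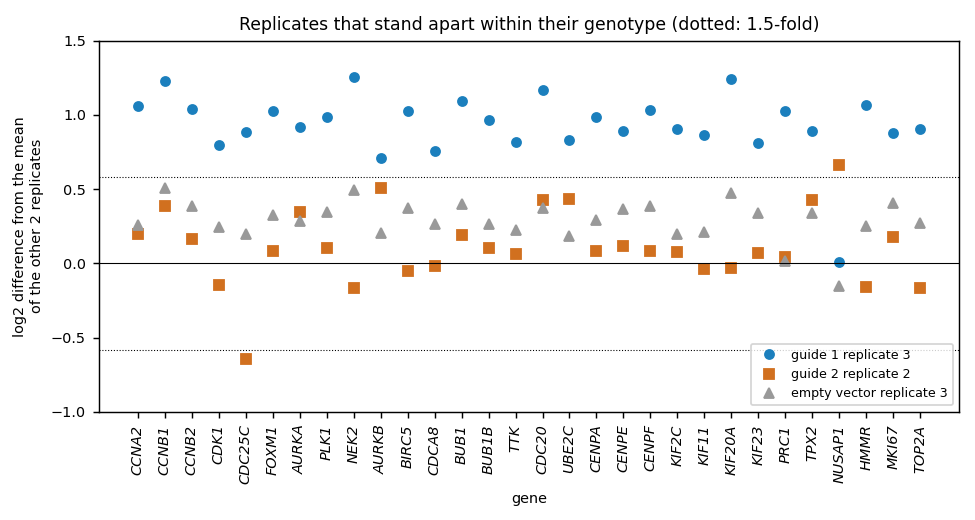
Log2 difference between 1 library and the mean of the other 2 of its genotype (y axis) for each gene (x axis), for guide 1 replicate 3 (circles), guide 2 replicate 2 (squares) and empty-vector replicate 3 (triangles); dotted lines mark 1.5-fold. All circles but NUSAP1 lie above the upper line, and no triangle lies above it.

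Against the empty vector, the mitotic genes had higher levels in parental cells and in guide 2, with calls in both, and positive differences without calls in guides 1 and 2. Guide 1 had no common level. Parental cells had 8 of 30 genes called higher and 0 lower by edgeR's quasi-likelihood test (Benjamini-Hochberg adjusted p under 0.05 over all genes tested), with a median log2 fold change of 0.73 over the 30. In that comparison 1.53% of all genes were called higher and 4.37% in either direction, and the median of all genes tested in these comparisons lay between -0.03 and 0.03. Guide 2 had 3 genes called higher and 0 lower, with a median of 0.63 (background 1.2% higher, 3.94% in either direction). Guides 1 and 2 had 0 called by edgeR, with a median of 0.56 (background 0.269% higher, 0.962% in either direction), although 21 of 30 had an unadjusted p under 0.05 (14% of all genes). DESeq2 called 5 higher there (1.25% of all genes) and voom with sample quality weights called 28 higher (12.6%). Guide 1 had 0 called by edgeR, 0 with an unadjusted p under 0.05 (21.4% of all genes) and a median of 0.15 (background 1.31% higher, 5.88% in either direction). DESeq2 called 0 there, and voom with quality weights called 7, all lower, a share close to the 21.6% of all genes that it called lower.

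The direction was the same in nearly every gene. In parental cells 28 of 30 genes had all 3 libraries above all 3 empty-vector libraries (18% of all genes tested), and 28 did in guide 2 (12.2%) and 28 in guides 1 and 2 (20.5%), against 0 in guide 1 (18.1%). Only NUSAP1 had a negative difference in the first 3 comparisons. The 4 comparisons share the 3 empty-vector libraries, so their likeness is not independent evidence. The summed level of the 30 genes was 7028 ± 400.5 CPM in parental cells, 4033 ± 514 in empty-vector cells, 4661 ± 1992 in guide 1, 6378 ± 361 in guide 2 and 6062 ± 229 in guides 1 and 2 (SD, n = 3 each). As a share of all counts this was 0.703% ± 0.040, 0.403% ± 0.051, 0.466% ± 0.199, 0.638% ± 0.036 and 0.606% ± 0.023 (SD, n = 3).

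The number of calls rested on few libraries, while the medians moved less. Guide 1 replicate 3 enters the spread that all genotypes share. It stood apart in these same genes, so calls made without it describe how the counts depend on it and are not independent support. Without it the number called higher was 28 in parental cells (3.49% of all genes), 27 in guide 2 (2.71%) and 25 in guides 1 and 2 (1.78%), and the median log2 fold changes were 0.74, 0.63 and 0.57. Without any 1 of the 3 empty-vector libraries no member was called by edgeR in any of the 4 comparisons, and 0.0613% to 0.463% of all genes were called higher. The parental count of 8 went to 3 without parental replicate 1 (0.854% of all genes called higher), to 0 without parental replicate 2 (0.173%) or 3 (0.362%) and to 20 without guide 2 replicate 2 (5.24%). It went to 5 without guide 2 replicate 1 (1.09%) or 3 (1.07%), and to 2, 2 and 3 without guides 1 and 2 replicates 1, 2 and 3 (0.691%, 0.74% and 0.808%). The guide 2 count of 3 went to 1 without guide 2 replicate 1 (0.373%) or 3 (0.441%) and to 6 without guide 2 replicate 2 (5.04%). It went to 2 without parental replicate 2 (0.82%) or 3 (0.858%) and without guides 1 and 2 replicate 1 (0.613%), 2 (0.634%) or 3 (0.685%). For guides 1 and 2 it went from 0 to 2 without guide 2 replicate 2 (1.71%). For CDK1 in parental cells the standard error fell from 0.18 to 0.09 when guide 1 replicate 3 was left out, at a log2 fold change of 0.73 and 0.74.

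**Figure D3:**
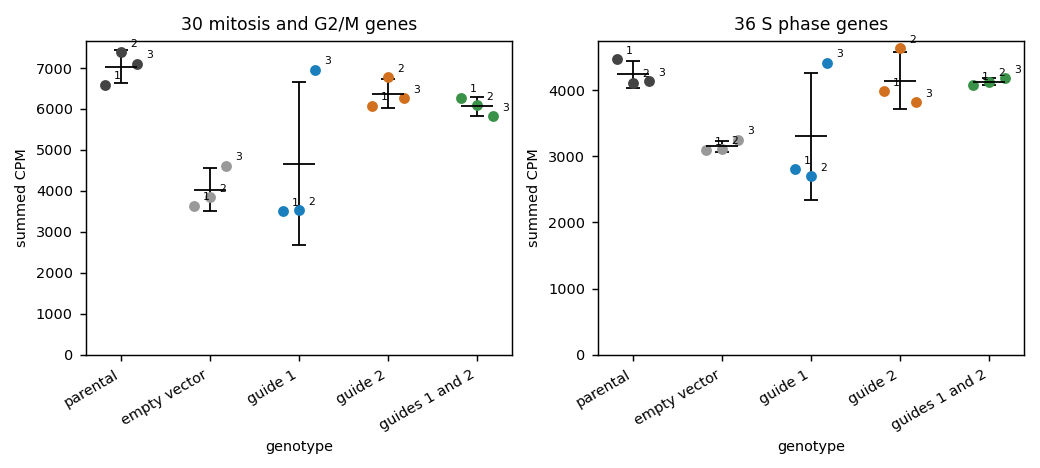
Summed CPM (y axes, from 0) of the 30 mitosis and G2/M genes (left) and of 36 S phase genes (right) in each library (points, numbered by replicate) by genotype (x axes); horizontal marks are means and bars are the SD of 3 libraries. Guide 1 replicate 3 lies at 6961 CPM in the left panel, within the parental range, and its mates lie at 3501 and 3521.

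**Figure D4:**
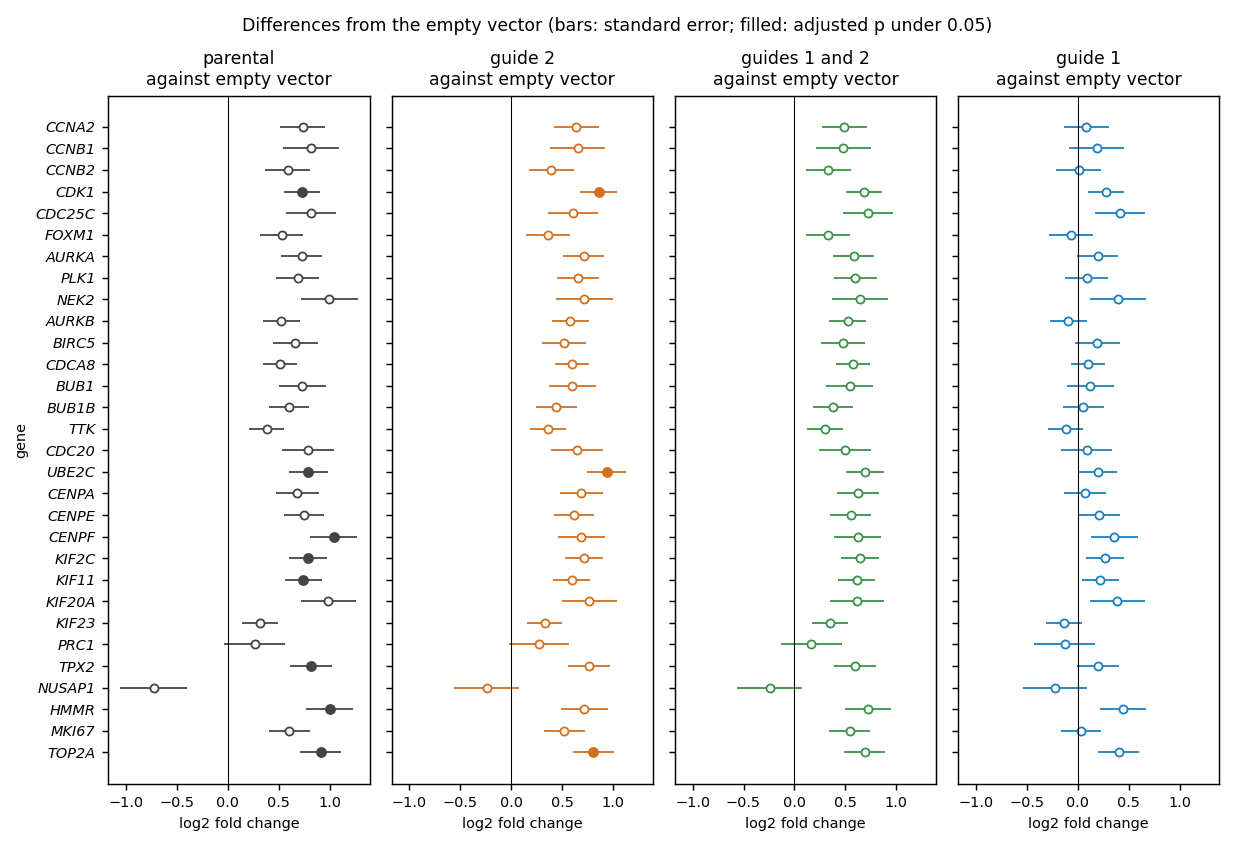
Log2 fold change against the empty vector (x axes) for each gene (y axis) in 4 comparisons, with the standard error as bars and filled points where the edgeR adjusted p was under 0.05. Filled points number 8 for parental cells, 3 for guide 2, 0 for guides 1 and 2 and 0 for guide 1, and NUSAP1 lies below 0 in all 4 panels.

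The regulators of mitotic entry were CCNA2, CCNB1, CCNB2, CDK1, CDC25C and FOXM1. Cyclins A2, B1 and B2 activate CDK1, the kinase that drives cells into mitosis, CDC25C is a phosphatase that removes the inhibitory phosphates of CDK1, and FOXM1 is a transcription factor of the G2/M wave. All 6 had every parental, guide 2 and guides 1 and 2 library above every empty-vector library. CDK1 alone was called, in parental cells and in guide 2. CDK1 (ENSG00000170312, chromosome 10, 60778331 to 60794852 on the plus strand) stood at 206, 254 and 250.3 CPM in parental cells, 136, 129.6 and 154 in empty-vector cells, 142, 131 and 240.3 in guide 1, 255, 242 and 272 in guide 2, and 229, 241 and 214 in guides 1 and 2. Its guide 1 libraries 1 and 2 lay among the empty-vector values, and guide 1 replicate 3 lay among the parental ones. CDK1 rose by a log2 fold change of 0.86 ± 0.18 (SE, adjusted p = 0.0211) in guide 2 and 0.73 ± 0.18 (SE, adjusted p = 0.0399) in parental cells by edgeR, and its difference in guides 1 and 2, 0.68 ± 0.18 (SE), had an adjusted p of 0.0938 by edgeR.

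Cyclin B1 had the highest level of the 30 genes per kilobase of exon, a mean of 115 CPM per kilobase over the 15 libraries. CCNB1 (ENSG00000134057, chromosome 5, 69167010 to 69178245 on the plus strand) stood at 365, 388 and 393 CPM in parental cells, 186, 189 and 259.9 in empty-vector cells, 167, 167 and 396 in guide 1, 302, 404 and 304 in guide 2, and 304, 301 and 295 in guides 1 and 2. Its 2 low guide 1 libraries were below every empty-vector library, and no empty-vector library reached the other 3 genotypes. The log2 fold changes were 0.82 ± 0.27 in parental cells, 0.65 ± 0.27 in guide 2 and 0.48 ± 0.27 in guides 1 and 2 (SE), with edgeR adjusted p-values of 0.11, 0.21 and 0.477. CDC25C (ENSG00000158402, chromosome 5, 138285265 to 138338355 on the minus strand), one of the least abundant members, stood at 27.8, 44.0 and 36.6 CPM in parental cells, 17.6, 21.0 and 21.5 in empty-vector cells, 20.2, 21.6 and 39.0 in guide 1, 35.5, 22.6 and 34.1 in guide 2, and 34.3, 33.2 and 33.7 in guides 1 and 2. Guide 2 replicate 2 was its low library, close to the empty vector. Its differences, 0.82 ± 0.25 in parental cells and 0.73 ± 0.25 in guides 1 and 2 (SE), had edgeR adjusted p-values of 0.0795 and 0.185. FOXM1 had the smallest parental difference of this group, 0.53 ± 0.21 (SE; edgeR adjusted p = 0.193). Its transcript stood at 209, 231 and 222 CPM in parental cells, 135, 144 and 171 in empty-vector cells and 108, 106 and 219 in guide 1, whose first 2 libraries were the lowest of the 15.

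The spindle pole kinases AURKA, PLK1 and NEK2 mature and separate the centrosomes. None of the 3 was called in any comparison, with log2 fold changes of 0.68 to 1.00 in parental cells and 0.66 to 0.72 in guide 2, and all 3 had those libraries above every empty-vector library. PLK1 (ENSG00000166851, chromosome 16, 23677656 to 23690367 on the plus strand) stood at 190.1, 207 and 200.0 CPM in parental cells, 109, 115 and 139 in empty-vector cells, 97.9, 97.2 and 195 in guide 1, 196, 204 and 179 in guide 2, and 191, 174 and 193 in guides 1 and 2. Its guide 1 libraries 1 and 2 were the lowest of the 15 and replicate 3 lay inside the parental range. Its log2 fold change was 0.68 ± 0.21 in parental cells and 0.66 ± 0.21 in guide 2 (SE), with edgeR adjusted p-values of 0.0855 and 0.106. NEK2, which splits the centrosomes, had the largest difference of the 3 in parental cells, 1.00 ± 0.28 (SE), with an edgeR adjusted p of 0.0604.

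AURKB, BIRC5 and CDCA8 encode the Aurora B kinase, survivin and borealin of the chromosomal passenger complex, which corrects kinetochore attachments. INCENP, its scaffold, is described with the other G2/M genes. None of the 3 was called. BIRC5 (ENSG00000089685, chromosome 17, 78214186 to 78225636 on the plus strand), the most abundant of them, stood at 157, 185 and 174 CPM in parental cells, 97.5, 97.9 and 123 in empty-vector cells, 91.6, 89.9 and 187 in guide 1, 158, 151 and 151 in guide 2, and 146, 152 and 153 in guides 1 and 2. Parental, guide 2 and guides 1 and 2 libraries all lay above the highest empty-vector library, and guide 1 held both the 2 lowest values and the highest value of the series. CDCA8 (ENSG00000134690, chromosome 1, 37692418 to 37709719 on the plus strand) stood at 72.7, 86.9 and 80.2 CPM in parental cells, 50.8, 52.9 and 60.6 in empty-vector cells, 47.3, 48.9 and 82.0 in guide 1, 84.9, 83.6 and 82.1 in guide 2, and 82.9, 79.8 and 86.2 in guides 1 and 2. It had one of the narrowest ranges, and its guide 2 libraries lay within 3 CPM of each other. The log2 fold changes of CDCA8 were 0.51 ± 0.17 in parental cells, 0.60 ± 0.17 in guide 2 and 0.58 ± 0.17 in guides 1 and 2 (SE), with edgeR adjusted p-values of 0.101, 0.0659 and 0.122. AURKB was highest in guide 2 replicate 2, at 67.1 CPM against 49.7 and 43.4 in its mates.

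The spindle checkpoint and the anaphase-promoting complex (APC/C), the ubiquitin ligase that ends mitosis, were represented by BUB1, BUB1B, TTK, CDC20 and UBE2C. BUB1, BUB1B and TTK hold the checkpoint on while chromosomes are unattached, CDC20 is the APC/C activator they inhibit, and UBE2C is an E2 enzyme that supplies the APC/C with ubiquitin. UBE2C was called in guide 2 and in parental cells, and the other 4 were not. UBE2C (ENSG00000175063, chromosome 20, 45812576 to 45816957 on the plus strand) stood at 122, 128 and 119.8 CPM in parental cells, 65.0, 69.8 and 74.6 in empty-vector cells, 64.2, 63.4 and 114 in guide 1, 125, 165 and 116 in guide 2, and 116, 112 and 116 in guides 1 and 2. The 3 genotypes above the empty vector were separated from it by a wide gap, and guide 2 replicate 2 was the highest library. UBE2C rose by a log2 fold change of 0.94 ± 0.19 (SE, adjusted p = 0.0185) in guide 2 and 0.79 ± 0.19 (SE, adjusted p = 0.0352) in parental cells by edgeR. In guides 1 and 2 the difference of 0.69 ± 0.19 (SE) had an edgeR adjusted p of 0.104. CDC20 (ENSG00000117399, chromosome 1, 43358955 to 43363203 on the plus strand) stood at 296, 288 and 295 CPM in parental cells, 149, 156 and 192 in empty-vector cells, 127, 123 and 283 in guide 1, 242, 319 and 225 in guide 2, and 236, 234 and 241 in guides 1 and 2. Its differences were 0.79 ± 0.25 in parental cells and 0.64 ± 0.25 in guide 2 (SE), with edgeR adjusted p-values of 0.101 and 0.187. TTK had one of the smaller differences, 0.38 ± 0.17 in parental cells (SE; edgeR adjusted p = 0.246).

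At the centromere and kinetochore, CENPA is the histone variant that marks the centromere, CENPE is a plus-end-directed motor, CENPF is a large outer kinetochore protein and KIF2C (MCAK) depolymerises microtubule ends. CENPF and KIF2C were called higher in parental cells, and none of the 4 was called in another comparison. CENPF (ENSG00000117724, chromosome 1, 214603195 to 214664588 on the plus strand) stood at 749.9, 923 and 870.4 CPM in parental cells, 344, 396 and 471 in empty-vector cells, 368, 404 and 797 in guide 1, 595, 690.3 and 689 in guide 2, and 681, 643 and 570.0 in guides 1 and 2. It had the largest parental difference of the 30 genes, and no parental library overlapped with the empty vector. CENPF rose by a log2 fold change of 1.04 ± 0.23 (SE, adjusted p = 0.0274) in parental cells by edgeR, and its difference in guide 2 was 0.69 ± 0.23 (SE, adjusted p = 0.123). KIF2C rose by 0.79 ± 0.19 (SE, adjusted p = 0.0351) in parental cells and missed the threshold in guide 2, at 0.71 ± 0.19 (SE, adjusted p = 0.0548). CENPE was almost constant among the parental libraries, at 208, 208 and 208 CPM, and its difference from the empty vector was 0.75 ± 0.20 (SE) with an edgeR adjusted p of 0.0506.

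The spindle motors and microtubule proteins held 3 of the 8 calls in parental cells: TPX2, HMMR and KIF11. TPX2 activates Aurora A on spindle microtubules, HMMR is a spindle pole protein, and KIF11 (Eg5) slides antiparallel microtubules apart. TPX2 (ENSG00000088325, chromosome 20, 31739271 to 31801805 on the plus strand) stood at 476, 459.7 and 431 CPM in parental cells, 230.1, 241 and 289.7 in empty-vector cells, 229.6, 227 and 427 in guide 1, 392, 531 and 383 in guide 2, and 397, 389 and 383 in guides 1 and 2. Guide 2 replicate 2 was the highest library of the series and the empty-vector libraries stayed below every library of the 3 higher genotypes. TPX2 rose by a log2 fold change of 0.81 ± 0.21 (SE, adjusted p = 0.0446) in parental cells by edgeR, and in guide 2 its difference was 0.76 ± 0.21 (SE, adjusted p = 0.0603). HMMR (ENSG00000072571, chromosome 5, 163460203 to 163491945 on the plus strand) stood at 170.1, 208 and 205 CPM in parental cells, 90.5, 90.1 and 105 in empty-vector cells, 98.0, 93.1 and 202 in guide 1, 159, 148 and 167 in guide 2, and 167, 169.5 and 143 in guides 1 and 2. Its guide 1 libraries 1 and 2 lay within the empty-vector range. HMMR rose by 1.00 ± 0.23 (SE, adjusted p = 0.029) in parental cells by edgeR, and KIF11 rose by 0.74 ± 0.18 (SE, adjusted p = 0.0396). KIF20A and KIF23 are kinesins of the central spindle and cytokinesis. KIF20A had one of the largest parental differences, 0.99 ± 0.27 (SE; edgeR adjusted p = 0.057), and KIF23 one of the smallest, 0.31 ± 0.18 (SE; edgeR adjusted p = 0.358).

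PRC1, which bundles antiparallel microtubules at the midzone, and NUSAP1, which binds microtubules near chromatin, could not be measured as the other 28 were. PRC1 had a mean of 2.04 CPM (range 1.19 to 2.61) and NUSAP1 a mean of 0.311 CPM (range 0.157 to 0.435), against means of 29.5 to 690.4 CPM for the others. In GENCODE release 29 a further protein-coding gene model on the same strand shares 57.6% of the exon bases of PRC1 and 62.2% of those of NUSAP1, whereas no model shares more than 15.9% of another member. The model that overlaps PRC1 had 3.23 to 7.36 CPM and the model that overlaps NUSAP1 had 0 counts in all libraries. The part of this overlap in the low values was not tested, and their values are uncertain. NUSAP1 was the gene that ran the other way, at -0.73 ± 0.33 in parental cells (SE; edgeR adjusted p = 0.242), with 10 counts in its lowest library. Without PRC1 and NUSAP1 the median log2 fold changes were 0.73 in parental cells, 0.64 in guide 2, 0.58 in guides 1 and 2 and 0.19 in guide 1 over 28 genes.

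TOP2A and MKI67 act on mitotic chromosomes. TOP2A is the topoisomerase that untangles sister DNA, and MKI67 encodes Ki-67, a coat of mitotic chromosomes and the common marker of cycling cells. TOP2A (ENSG00000131747, chromosome 17, 40388516 to 40417950 on the minus strand) had the highest mean level of the 30 genes and stood at 749, 971 and 881 CPM in parental cells, 416, 435 and 501 in empty-vector cells, 458, 468 and 876 in guide 1, 792, 743 and 852 in guide 2, and 777, 753 and 686 in guides 1 and 2. Its 2 low guide 1 libraries lay within the empty-vector range, and guide 1 replicate 3 lay inside the parental range. TOP2A rose by a log2 fold change of 0.91 ± 0.20 (SE, adjusted p = 0.0264) in parental cells and 0.81 ± 0.20 (SE, adjusted p = 0.0445) in guide 2 by edgeR, and in guides 1 and 2 its difference was 0.69 ± 0.20 (SE, adjusted p = 0.129). MKI67 was not called, at 0.60 ± 0.20 in parental cells and 0.52 ± 0.20 in guide 2 (SE), with edgeR adjusted p-values of 0.109 and 0.175.

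In guide 1 against the empty vector the sign of the difference depended on replicate 3. With all 3 libraries, 24 of 30 log2 fold changes were positive, from -0.22 in NUSAP1 to 0.45 in HMMR, and the smallest edgeR adjusted p was 0.277. Without replicate 3 the median was -0.22, and 5 genes fell while 0 rose (3.69% of all genes were called lower and 5.46% in either direction). They were TTK at -0.44 ± 0.09 (SE, adjusted p = 0.0209), FOXM1 at -0.49 ± 0.10 (SE, adjusted p = 0.0216), KIF23 at -0.45 ± 0.09 (SE, adjusted p = 0.0248), BUB1B at -0.34 ± 0.08 (SE, adjusted p = 0.0427) and CCNB2 at -0.42 ± 0.11 (SE, adjusted p = 0.0467), by edgeR. HMMR, TOP2A, CDK1 and CENPF were close to the empty vector without replicate 3, at 0.01, 0.04, -0.03 and -0.06. The smallest adjusted p of these 4 in that fit was 0.802 by edgeR.

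No member was called by edgeR when an edited line was compared with parental cells or with another edited line. Against parental cells the median log2 fold change was -0.56 in guide 1 (29 of 30 negative), -0.10 in guide 2 (22 negative) and -0.17 in guides 1 and 2 (26 negative). Of all genes, 0.149%, 0.0516% and 0.195% were called there. An unadjusted p under 0.05 was found for 26, 0 and 0 members, against 19.9%, 7.37% and 9.98% of all genes. Voom with quality weights called 29, 4 and 7 lower in these 3 comparisons, where it called 27.2%, 16.1% and 10.8% of all genes lower, so 4 of 30 in guide 2 was below that share. DESeq2 called 1, 0 and 0 lower (1.76%, 0.372% and 0.865% of all genes). Without guide 1 replicate 3, the library that stood apart in these genes, calls are a description. In that fit edgeR called 28 of 30 lower in guide 1 than in parental cells (4.58% of all genes were called lower and 7.64% in either direction), at a median of -0.93. Without guide 2 replicate 2 it called 3 lower, where 7.47% of all genes were called lower. All 3 libraries of the edited line lay below all 3 parental libraries for 6 genes in guide 1 (12.8% of all genes), 8 in guide 2 (5.56%) and 17 in guides 1 and 2 (11.5%).

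Between edited lines the median was -0.45 for guide 1 against guide 2 (29 of 30 negative), 0.39 for guides 1 and 2 against guide 1 (29 positive) and -0.06 for guides 1 and 2 against guide 2 (25 negative). Of all genes, 0.0401%, 0.275% and 0.149% were called. An unadjusted p under 0.05 was found for 14, 9 and 0 members, against 15.2%, 13% and 5.8% of all genes. DESeq2 called 1, 0 and 0 members there (1.15%, 2.18% and 0.859% of all genes), and voom with quality weights 29, 29 and 0 (20.2%, 46.5% and 15.2%). Calls without guide 1 replicate 3 are again a description. In that fit edgeR called 27 lower in guide 1 than in guide 2 (2.58% of all genes called lower, 3.31% in either direction) and 27 higher in guides 1 and 2 than in guide 1 (3.17% and 4.61%). Without guide 2 replicate 2 it called 1 higher in guides 1 and 2 than in guide 1, where 2.31% of all genes were called higher.

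Most of the 30 genes followed each other across libraries. Over the 15 libraries, each gene's log2 CPM was correlated (Pearson) with the mean of the other well-measured members, a mean that leaves out PRC1 and NUSAP1. The correlation was at least 0.90 for 27 genes, and 0.83 for CDC25C, 0.70 for PRC1 and -0.38 for NUSAP1. This is a description, since libraries of 1 genotype share their level and all genes of a library share its total. BUB1 followed the others most closely, at 0.99. Per kilobase of exon the order of mean levels began with CCNB1 (115 CPM per kilobase), CDC20 (111), TOP2A (107), TPX2 (101) and UBE2C (81.5), and among the 28 well-measured genes it ended with CENPA (16.3) and CDC25C (8.85).

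The 113 genes of 5 other G2/M lists had positive medians in the same genotypes. In parental cells 25 of 113 rose and 0 fell, with a median log2 fold change of 0.54. In guide 2, 17 rose and 0 fell (median 0.46). In guides 1 and 2, 1 rose and 0 fell (median 0.42). In guide 1, 0 were called by edgeR (median 0.09), with 7 (6.19%) at an unadjusted p under 0.05, against 21.4% of all genes. Of all genes tested, 1.53% in parental cells, 1.2% in guide 2 and 0.269% in guides 1 and 2 were called higher. All calls in these lists are from the fit of all 15 libraries. The list of spindle and cytokinesis genes had 8 of 28 called in parental cells (median 0.71) and 3 in guide 2 (0.58), among them ASPM, a spindle pole protein (0.98 ± 0.23 in parental cells), and the kinesins KIF18A (0.97 ± 0.20) and KIF15, the only gene of these lists called in guides 1 and 2 (0.72 ± 0.15, SE; edgeR adjusted p = 0.0491). Of 14 condensin and chromosome genes 5 rose in parental cells (median 0.60) and 2 in guide 2 (0.53), led in both by NCAPD3, a condensin II subunit (0.80 ± 0.20 and 0.85 ± 0.20).

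Of 32 centromere and kinetochore genes 7 rose in parental cells (median 0.47) and 6 in guide 2 (0.40), including NUF2 of the NDC80 complex (0.86 ± 0.20 in parental cells) and INCENP (0.75 ± 0.18 in guide 2). Of 16 regulators and kinases 3 rose in parental cells (median 0.43) and 4 in guide 2 (0.41). BORA, a cofactor by which Aurora A activates PLK1, rose by 0.94 ± 0.20 and 0.86 ± 0.20, and CDC25B, the phosphatase that starts CDK1 activation, by 0.88 ± 0.17 and 0.72 ± 0.17 (SE). Of 23 genes of the APC/C, the checkpoint and mitotic exit 2 rose in each of parental cells (median 0.25) and guide 2 (0.20); ESPL1, the separase, rose by 0.75 ± 0.19 in guide 2. SGO2, which protects centromeric cohesion, rose by 0.86 ± 0.22 in parental cells. Of all genes tested, 1.53% in parental cells and 1.2% in guide 2 were called higher. Whether the lists differ from each other was not tested.

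Genes of DNA replication had positive medians in the same 3 genotypes. Of 36, none was called in parental cells by edgeR (median 0.33; 16 at an unadjusted p under 0.05, against 19.8% of all genes), 2 rose in guide 2 (0.33) and 1 in guides 1 and 2 (0.35). Of all genes tested, 1.2% in guide 2 and 0.269% in guides 1 and 2 were called higher. RRM1, a ribonucleotide reductase subunit, rose by 0.66 ± 0.16 in guide 2, and CDC45, a part of the replicative helicase, by 0.48 ± 0.10 in guide 2 and 0.49 ± 0.10 in guides 1 and 2 (SE). The summed level of the 30 mitotic genes divided by that of the 36 replication genes was 1.66 ± 0.17 in parental cells, 1.28 ± 0.13 in empty-vector cells, 1.38 ± 0.18 in guide 1, 1.54 ± 0.09 in guide 2 and 1.47 ± 0.07 in guides 1 and 2 (SD, n = 3 each). In guide 1 it was 1.25, 1.30 and 1.58, again highest in replicate 3.

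Of 17 genes of the DREAM repressor and of cell cycle exit, 15 were tested. In parental cells CDKN1B, the CDK inhibitor p27, rose by a log2 fold change of 0.45 ± 0.09 (SE, adjusted p = 0.0206 by edgeR) and CDKN1A, the CDK inhibitor p21, had a log2 fold change of -1.20 ± 0.28 (SE, adjusted p = 0.0304 by edgeR), a fall. Of all genes tested, 4.37% were called in either direction in parental cells. CDKN1A had means of 117 CPM in parental cells, 263 in empty-vector cells, 273 in guide 1, 161 in guide 2 and 181 in guides 1 and 2. None of the 15 was called by edgeR in guide 2, in guides 1 and 2 or in guide 1. Unadjusted, 7, 4 and 1 of the 15 had a p under 0.05, against 18.9%, 14% and 21.4% of all genes.

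**Figure D5:**
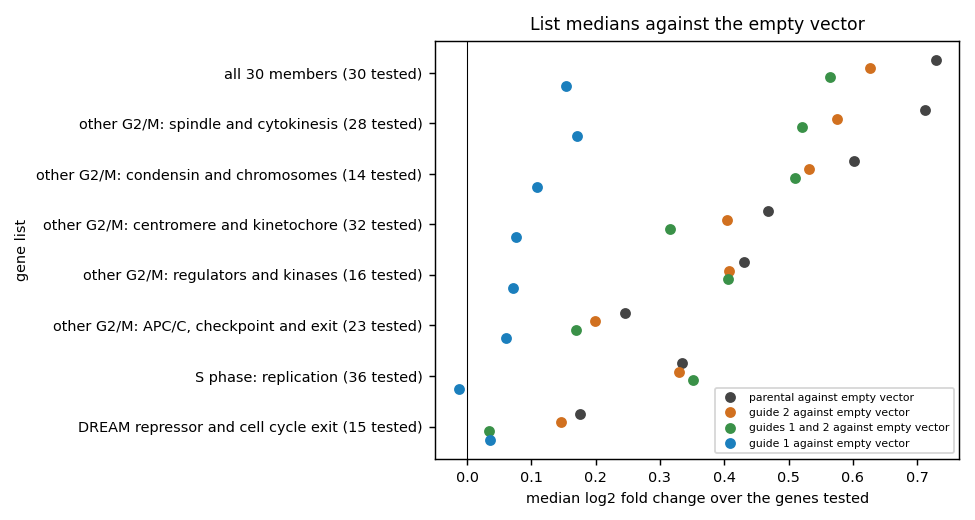
Median log2 fold change against the empty vector (x axis) over the tested genes of 8 lists (y axis), for parental cells, guide 2, guides 1 and 2, and guide 1 (colours). The mitotic genes have medians of 0.73, 0.63, 0.56 and 0.15 in that order, and the guide 1 point lies to the left of the parental and guide 2 points in every list.

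Markers of cell type were compared in the same libraries. All 12 basal mammary epithelial markers were detected (over 3 counts in each library) in parental, empty-vector and guides 1 and 2 cells, 11 in guide 1 and 10 in guide 2. Their summed level was 7460, 2971 and 6247 CPM in parental cells, 6812, 7209 and 12618 in empty-vector cells, 2658, 2949 and 2278 in guide 1, 2452, 12043 and 2646 in guide 2, and 4835, 4437 and 4192 in guides 1 and 2. In guide 1, 5 of these 12 fell against the empty vector, where 5.88% of all genes were called in either direction. The falls were led by CDH1, the cadherin of epithelial junctions, at means of 0.110 and 72.7 CPM, and KRT17, at 32.5 and 959 CPM. None of the 12 was called by edgeR in parental cells, guide 2 or guides 1 and 2. Unadjusted, 3, 2 and 2 of the 12 had a p under 0.05, against 19.8%, 18.9% and 14% of all genes. The high basal level of guide 2 replicate 2 and the low one of parental replicate 2 came with mitotic sums of 6781 and 7387 CPM, each the highest of its genotype. Of 8 fibroblast markers 5 were tested and the summed level was 108 to 139 CPM in parental cells, 103 to 146 in empty-vector cells, 437 to 1105 in guide 1, 62.3 to 407 in guide 2 and 232 to 257 in guides 1 and 2, most of it DCN in every library. In guide 1, 2 of these rose (DCN and LUM) and 1 fell, COL1A1 fell in guide 2 and in guides 1 and 2, and COL1A2 rose in parental cells. Of all genes, 5.88% in guide 1, 3.94% in guide 2, 0.962% in guides 1 and 2 and 4.37% in parental cells were called in either direction. Of 8 blood and endothelial markers 1 was tested and not called, the list summed to at most 2.21 CPM in any library, and CD3E and HBB were at 0 in all 15. The part of these markers in the mitotic differences was not tested.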

How the data were processed

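RNA from MCF-10A cells of 5 genotypes was analysed in 15 libraries, grouped by their titles. The authors deposited whole-number counts per Ensembl gene and a table of CPM, per the file headers without pooling of replicates. Per the submitters' processing notes, Trim Galore 0.6.0, STAR 2.7.8a and build GRCh38 were used; the counting program, annotation and use of strand are not given in the sources used here, so overlapping genes carry that uncertainty. Per the labels' protocols, poly(A) libraries were made with a KAPA mRNA kit. The deposited CPM equalled counts over library totals to within 4.91e-11. Symbols came from a table of gene names (60357 of 60721 identifiers matched), positions from GENCODE release 29.

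Counts were tested with edgeR 4.0.16 in R 4.3.3 (filterByExpr by genotype, 17457 genes, TMM scaling, group-means model over all 15 libraries, 10 residual degrees of freedom, quasi-likelihood test, two-sided, Benjamini-Hochberg over all genes tested, called at an adjusted p under 0.05). The standard error is |log2 fold change| over the square root of F. The procedure was tested on simulated counts in which all libraries of a genotype shared the same means. That simulation had no library that departs as a whole, so it does not cover this feature of the data. Alternatives were RLE scaling, no filter, a replicate block, DESeq2 1.42.0, voom with sample quality weights (limma 3.58.1), only the compared genotypes, and each library left out; removal of guide 1 replicate 3 and guide 2 replicate 2 together was chosen after seeing the data. Tables and plots used pandas 2.3.3, numpy 2.4.6 and matplotlib 3.10.9 in Python 3.11.15. For principal components, log2 CPM had a prior count of 2.

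The members and lists were chosen with earlier results of these data known. Values in every library are given for the most abundant member of each of 7 roles and the 3 members of lowest p in each comparison with the empty vector (12 genes). In other lists, the 2 called genes of largest absolute change per comparison may be named. Replicates differed beyond counting noise in 24.6% to 76.8% of genes with at least 20 counts in a pair. Replicate numbers come from the labels. Deviations from the genotype means correlated between same-numbered guide 1 and empty-vector libraries (0.136 to 0.28). No other comparison had all 3 correlations above 0.1. Differently numbered guide 1 and empty-vector libraries averaged -0.095. Centring on the genotype means pulls that average to the opposite sign, so it adds no support for pairs. The main fit did not use replicate numbers, so its guide 1 results are unpaired. A block on replicate number was fitted only as an alternative. A count of 3 equals 0.038 to 0.065 CPM, a floor that covers counting error only.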

Additional observations from a re-analysis of the deposited data

How the results depend on the processing

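Of the results against the empty vector, the medians for parental cells, guide 2, and guides 1 and 2 stayed positive under every alternative tried, and the counts of calls did not stay within 1.5 times. The cause of each change below was not tested, except that leaving out a library or a genotype changes the spread the genotypes share. In parentheses is the share of all genes called in either direction. With DESeq2 the members called numbered 19 in parental cells (9.19%), 10 in guide 2 (7.87%) and 5 in guides 1 and 2 (4.32%) against the empty vector, 1 in guide 1 against parental cells (3.76%) and 1 in guide 1 against guide 2 (1.15%). Voom with quality weights gave 28, 28 and 28 for the first 3 (36.3%, 33.2% and 26.7%), 7 in guide 1 against the empty vector (42.5%), 29, 4 and 7 in guide 1, guide 2, and guides 1 and 2 against parental cells (52.9%, 32.5% and 21.3%), 29 in guide 1 against guide 2 (20.2%) and 29 in guides 1 and 2 against guide 1 (46.5%). Fits of only the compared genotypes gave 27, 0 and 28 for the first 3 (6.85%, 0.0794% and 18.7%) and 1 in guides 1 and 2 against parental cells (0.904%). Without the filter on low counts they were 12 in parental cells (1.61%) and 5 in guide 2 (1.38%). RLE scaling left 8 and 3 (4.47% and 3.97%).

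Without guide 1 replicate 3 and guide 2 replicate 2 together, chosen after seeing the data, 28, 28 and 28 were called in parental cells, guide 2, and guides 1 and 2 against the empty vector (20%, 19% and 11.9%) and 11 in guide 1 (25.8%). That removal gave 29 in guide 1 (32.4%) and 1 in guide 2 (10.7%) against parental cells, 28 in guide 1 against guide 2 (4.29%) and 28 in guides 1 and 2 against guide 1 (21.3%). Leaving out 1 library at a time gave 0 to 28 in parental cells (0.809% to 13.9%), 0 to 27 in guide 2 (0.948% to 14.5%), 0 to 25 in guides 1 and 2 (0.117% to 6.7%) and 0 to 5 in guide 1 (1.2% to 18.1%) against the empty vector. It gave 0 to 28 in guide 1 against parental cells (0.0335% to 14.5%), 0 to 27 in guide 1 against guide 2 (0.0111% to 3.31%) and 0 to 27 in guides 1 and 2 against guide 1 (0.0224% to 4.61%). The medians ranged from 0.66 to 0.81 in parental cells, 0.55 to 0.74 in guide 2, 0.48 to 0.68 in guides 1 and 2 and -0.22 to 0.33 in guide 1 against the empty vector. They ranged from -0.93 to -0.38 for guide 1, -0.15 to -0.07 for guide 2 and -0.19 to -0.12 for guides 1 and 2 against parental cells. Between edited lines they ranged from -0.84 to -0.27 for guide 1 against guide 2, 0.21 to 0.76 for guides 1 and 2 against guide 1 and -0.09 to -0.02 for guides 1 and 2 against guide 2.

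Reversals concerned guide 1 against the empty vector. The median became -0.13 with voom quality weights, -0.22 without guide 1 replicate 3 and -0.22 without the pair. With voom the log2 fold changes were CCNB1 -0.16, PLK1 -0.19, BIRC5 -0.089, CDCA8 -0.11, CDC20 -0.26, UBE2C -0.055 and TPX2 -0.032. Without the pair they were CCNB1 -0.34, CDK1 -0.034, PLK1 -0.31, BIRC5 -0.23, CDCA8 -0.19, CDC20 -0.41, UBE2C -0.13, CENPF -0.063 and TPX2 -0.15. Leaving out 1 library at a time gave ranges of CCNB1 -0.34 to 0.39, CDK1 -0.033 to 0.43, PLK1 -0.31 to 0.26, BIRC5 -0.23 to 0.37, CDCA8 -0.19 to 0.23, CDC20 -0.41 to 0.29, UBE2C -0.13 to 0.34, CENPF -0.063 to 0.55 and TPX2 -0.15 to 0.36.

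With the replicate number as a block, 5 members were called in parental cells (2.29%) and 2 in guide 2 (2.15%) against the empty vector, and 0 in guide 1. The correlation of guide 1 with same-numbered empty-vector libraries is described with the processing. Parental cells and guide 2 share only a number with the empty vector: 4 of 6 and 1 of 6 libraries correlated best with their own number. The block changed no other count of called members.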
